A study of Mus musculus with 2 samples.

Results

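The Mir181 family was followed in small RNA libraries made from B6NCrl mouse hearts at 15.5 days of embryonic life (E15.5). Its 6 genes, Mir181a-1, Mir181b-1, Mir181a-2, Mir181b-2, Mir181c and Mir181d, were chosen by symbol from the 1973 miRNA genes that carry counts, and all 6 were found. The series holds 1 group of healthy hearts with 2 biological replicates, a pool of 78 embryos for replicate 1 and a pool of 62 for replicate 2, each of both sexes, with 3439539 and 5833156 counts on miRNA genes. It has no treated or mutant group, so the values below describe levels, ratios between genes and the spread between the pools. In whole hearts, fewer cells of a type and less RNA per cell cannot be told apart.

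MicroRNAs (miRNAs) are cut from a hairpin RNA, whose left side gives the 5p and whose right side the 3p mature sequence. Either mature sequence can be loaded into an Argonaute protein and guide it to mRNAs, mainly through the seed, bases 2 to 8 of the mature sequence. In mouse T cells miR-181a tunes the sensitivity of the T cell receptor, in mouse endothelium miR-181b restrains NF-κB signalling, and in rat heart miR-181c has been found in mitochondria, where it acts on the mRNA of a cytochrome c oxidase subunit.

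The 5p sequences are shown because their identity between genes sets which reads could be counted. They are from RefSeq (GRCm38.p6), 5′ to 3′, with the seed in capitals.

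miR-181a-5p, from Mir181a-1 and Mir181a-2: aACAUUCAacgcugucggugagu

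miR-181b-5p, from Mir181b-1 and Mir181b-2: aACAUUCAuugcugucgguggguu

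miR-181c-5p, from Mir181c: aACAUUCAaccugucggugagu

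miR-181d-5p, from Mir181d: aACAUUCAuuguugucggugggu

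All 6 genes therefore share 1 seed on the 5p side, and 0 other genes among the 1738 mature entries of the table carry it. Counted from the 5′ end, miR-181b-5p differs from miR-181a-5p by A9U, C10U and A21G and is 1 base longer, and miR-181d-5p differs from miR-181b-5p by C12U and is 1 base shorter. miR-181c-5p is miR-181a-5p with the base at position 11 left out. All these differences lie outside the seed.

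The 3p sequences are shown because each belongs to 1 gene only, unlike miR-181a-5p and miR-181b-5p.

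miR-181a-1-3p: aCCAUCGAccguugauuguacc

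miR-181a-2-3p: aCCACCGAccguugacuguacc

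miR-181b-1-3p: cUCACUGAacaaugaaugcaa

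miR-181b-2-3p: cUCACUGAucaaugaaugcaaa

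miR-181c-3p: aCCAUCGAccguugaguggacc

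miR-181d-3p: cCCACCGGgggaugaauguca

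These 6 sequences have 4 seeds. miR-181a-1-3p and miR-181c-3p have the same seed and differ by U16G and U19G, whereas miR-181a-2-3p differs from miR-181a-1-3p by U5C, inside the seed, and by U16C. The 3p sequences of Mir181b-1 and Mir181b-2 share a seed and differ by A9U, and that of Mir181b-2 is 1 base longer.

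The deposited counts leave out every read that matched several places in the genome, which were 33.0% of the reads of replicate 1 and 30.1% of those of replicate 2. An exact read of miR-181a-5p matches the hairpins of Mir181a-1 and Mir181a-2 alike, and an exact read of miR-181b-5p those of Mir181b-1 and Mir181b-2. Such reads are in no count of these 4 genes, and their number was not analysed here. Mir181c and Mir181d have no stretch of 20 bases in common with another annotated hairpin, on either side. Matches outside annotated hairpins and transcripts were not analysed here. Counts are per hairpin and do not tell the 5p from the 3p side. The counts of the 4 genes with a shared 5p sequence are thus reads from the rest of the hairpin, or variants of the 5p sequence that match 1 copy best.

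The stretch shared by Mir181a-1 and Mir181a-2 is 28 bases long. It starts 1 base before miR-181a-5p and runs 4 bases past it, so a read would have to reach further to tell the copies apart. The stretch shared by Mir181b-1 and Mir181b-2 is 26 bases long, starts 2 bases before miR-181b-5p and ends exactly with it. The 5p sequence of each copy, with the 6 bases that follow it in the RefSeq hairpin in capitals, shows where the copies part.

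Mir181a-1: aacauucaacgcugucggugaguUUGGAA

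Mir181a-2: aacauucaacgcugucggugaguUUGGGA

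Mir181b-1: aacauucauugcugucgguggguuGAACUG

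Mir181b-2: aacauucauugcugucgguggguuUGAAUG

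A read of miR-181b-5p that is 1 base longer at its 3′ end fits 1 copy of Mir181b only, Mir181b-2 where that base is a U and Mir181b-1 where it is a G. Whether such reads are among the counts, and which copy made them, was not tested. On the 3p side, 0 stretches of 20 bases were shared between any of the 6 hairpins and another annotated hairpin.

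**Figure D1:**
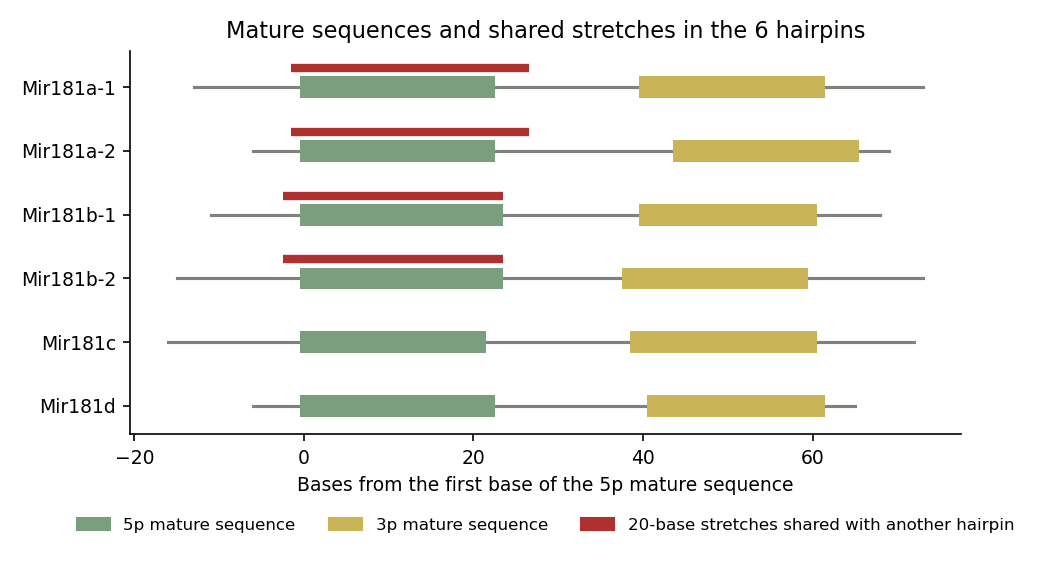
The 6 hairpins drawn from the first base of their 5p sequence (x axis, bases), with the 5p and 3p mature sequences as boxes. The line above a hairpin covers all 20-base stretches found in another annotated hairpin: it spans the 5p sequence in the Mir181a and Mir181b genes, 28 bases in the Mir181a pair and 26 in the Mir181b pair, and is missing in Mir181c and Mir181d.

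The family had 22096 counts on the genes' strand in replicate 1 and 36677 in replicate 2. As counts per 1000000 counts on miRNA genes (CPM), these were 6424 (exact binomial 95% interval 6340 to 6509) and 6288 (6224 to 6352), a mean of 6356 ± 96.5 CPM (SD, n = 2) or 0.636% of all counts. The intervals cover counting error only. In the column read as the opposite strand, all 6 genes had 0 counts in both libraries. All 6 had at least 10 counts in each library, as did 327 of the 1973 genes.

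The genes lie in 3 pairs on 3 chromosomes, and the pair on chromosome 8 held most of the counts. Mir181c and Mir181d together had 4653 and 4633 CPM in replicates 1 and 2, which is 73.1% ± 0.884 of the family's counts (SD, n = 2). The pair on chromosome 1, Mir181a-1 and Mir181b-1, had 954 and 963 CPM, or 15.1% ± 0.329 of the family. The pair on chromosome 2, Mir181a-2 and Mir181b-2, had 816 and 691 CPM, or 11.9% ± 1.21. Since the counts of the pairs on chromosomes 1 and 2 lack the exact 5p reads, these shares are shares of counts and not of the mature miRNAs.

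Mir181c (ENSMUSG00000065483.1 in the counts) lies on the minus strand of chromosome 8, in an intron of Nanos3, a gene known for its role in germ cells. Its positions, 84178873 to 84178961 (GRCm38), are those of the later version ENSMUSG00000065483.2, and the interval counted may differ. It had 8711 counts in replicate 1 and 15236 in replicate 2, or 2533 and 2612 CPM (2572 ± 56.1, SD, n = 2), the highest counts of the family. Only 45 of the 327 detected genes had a higher mean. Mir181d (ENSMUSG00000076338.1) lies 85 bases from it in the same intron, at positions 84178716 to 84178787. It had 7294 and 11789 counts, or 2121 and 2021 CPM (2071 ± 70.4). The ranges of these neighbours over the libraries did not overlap, although their difference is small.

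Mir181a-1 (ENSMUSG00000065565.1) lies on the plus strand of chromosome 1 at positions 137966455 to 137966541, within the noncoding gene Gm4258 and outside its exons. Its last 11 bases lie in an exon of a second noncoding gene, A430106G13Rik. It had 3246 counts in replicate 1 and 5566 in replicate 2, or 944 and 954 CPM (949 ± 7.40), the third level in the family. Mir181b-1 (ENSMUSG00000065458.1), 97 bases further on at positions 137966639 to 137966718, lies wholly in an exon of A430106G13Rik. It had 37 and 54 counts, or 10.8 CPM (7.57 to 14.8) and 9.26 CPM (6.95 to 12.1), with a mean of 10.01 ± 1.06 CPM. This was the lowest level of the 6, and 274 detected genes had a higher one.

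Mir181a-2 (ENSMUSG00000065423.1) and Mir181b-2 (ENSMUSG00000065578.1) lie on the plus strand of chromosome 2, at positions 38852735 to 38852810 and 38853830 to 38853918. No gene of the annotation used covers them on that strand, and on the other strand they lie in an intron of Nr6a1, which encodes an orphan nuclear receptor. Mir181b-2 also lies opposite an exon of the unclassified transcript Gm44144. Mir181b-2 had 2555 counts in replicate 1 and 3615 in replicate 2, or 743 and 620 CPM (681 ± 87.0). Mir181a-2 had 253 and 417 counts, or 73.6 CPM (64.8 to 83.2) and 71.5 CPM (64.8 to 78.7), with a mean of 72.5 ± 1.46 CPM. Mir181a-2 had 206 of the 327 detected genes above it, whereas its neighbour Mir181b-2 had 90.

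The order by level was Mir181c, Mir181d, Mir181a-1, Mir181b-2, Mir181a-2 and Mir181b-1, and it was the same in both libraries. No neighbours in this order had overlapping ranges. The closest were Mir181c and Mir181d, where the lowest value of Mir181c, 2533 CPM, stood against 2121 CPM as the highest of Mir181d, and Mir181a-1 and Mir181b-2, at 944 against 743 CPM.

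**Figure D2:**
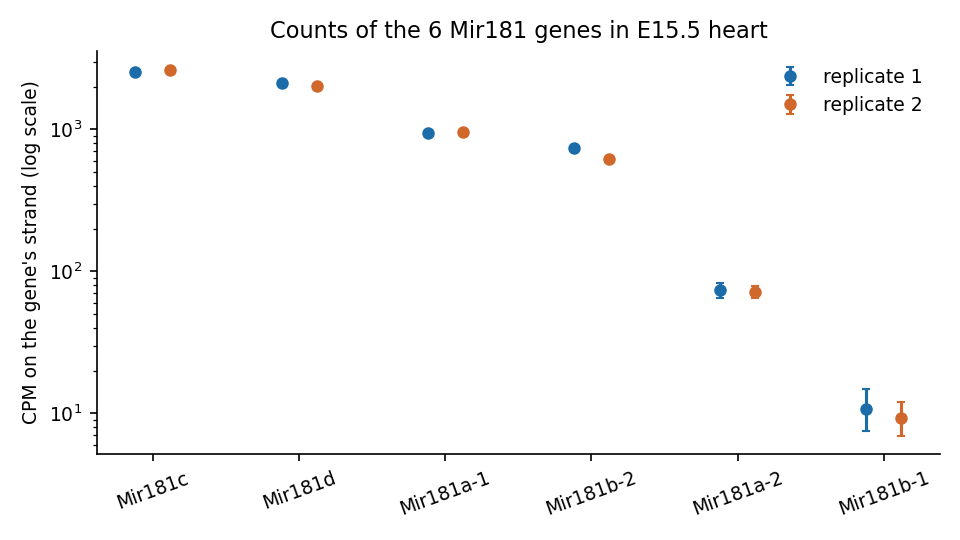
CPM on the gene's strand (y axis, log scale) of each Mir181 gene in both libraries, with exact 95% counting intervals, smaller than the point for most genes. The genes run from Mir181c at 2572 CPM to Mir181b-1 at 10.01 CPM, and the libraries lie close together for each gene.

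Within the pairs, the a and b genes stood in opposite order on chromosomes 1 and 2. Mir181a-1 had 87.7 times the counts of Mir181b-1 in replicate 1 (95% counting interval 63.5 to 125) and 103 times in replicate 2 (78.9 to 137), a log2 ratio of 6.57 ± 0.16 (SD, n = 2). Mir181a-2 had 0.0990 times the counts of Mir181b-2 in replicate 1 (0.0867 to 0.113) and 0.115 times in replicate 2 (0.104 to 0.128), a log2 ratio of -3.23 ± 0.16. The sign of the ratio was therefore opposite in the clusters, in both libraries. Mir181c and Mir181d, the pair without shared stretches, were nearly level, with Mir181c at 1.19 times the counts of Mir181d in replicate 1 (1.16 to 1.23) and 1.29 times in replicate 2 (1.26 to 1.32), a log2 ratio of 0.31 ± 0.08.

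Between the copies of 1 mature sequence, the chromosome 1 gene led for miR-181a and the chromosome 2 gene for miR-181b. Mir181a-1 had 12.8 times the counts of Mir181a-2 in replicate 1 (11.3 to 14.6) and 13.3 times in replicate 2 (12.1 to 14.8), a log2 ratio of 3.71 ± 0.04. Mir181b-1 had 0.0145 times the counts of Mir181b-2 in replicate 1 (0.0102 to 0.0200) and 0.0149 times in replicate 2 (0.0112 to 0.0195), a log2 ratio of -6.09 ± 0.03. Both ratios repeated closely between the pools. They are ratios of the reads that could be given to 1 copy, and the part of the unplaced 5p reads in them was not tested.

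**Figure D3:**
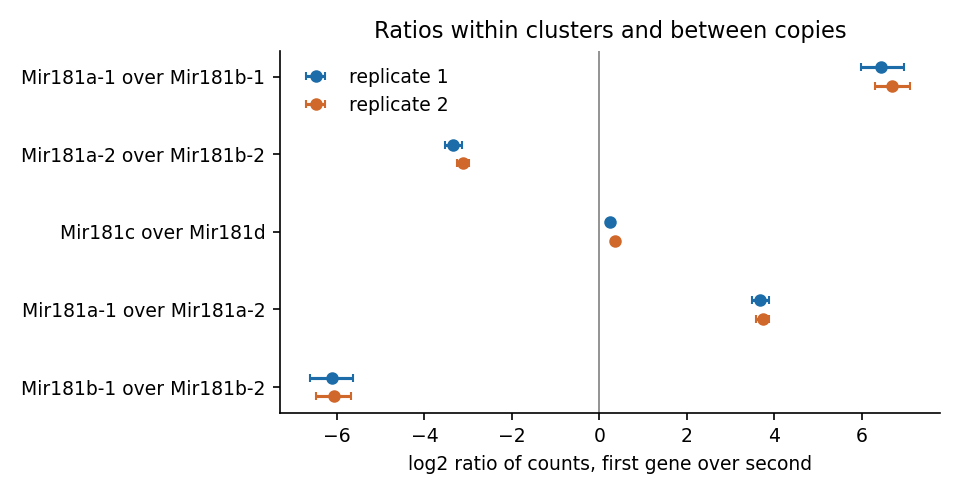
log2 ratio of counts (x axis), first gene over second, for the 3 pairs of neighbours and the 2 pairs of copies, per library with exact binomial 95% intervals. Mir181a-1 over Mir181b-1 lies at 6.57 and Mir181a-2 over Mir181b-2 at -3.23, on opposite sides of 0, while Mir181c over Mir181d lies at 0.31.

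Unequal counts were common among miRNA genes that share a mature sequence. Among counted genes with the same symbol in RefSeq, 53 pairs share an identical mature sequence. Copies whose symbols differ between RefSeq and GENCODE are not among them. Of the 53 pairs, 18 had at least 100 counts together in each library. Their absolute log2 ratio of counts, with 0.5 added to each count and averaged over the libraries, had a median of 1.91 and ran from 0.46 for Mir194-1 and Mir194-2 to 7.43 for Mir199a-1 and Mir199b. The Mir181b pair, at 6.07, had 1 pair above it, and the Mir181a pair, at 3.71, had 5 above it. Both genes were detected in 15 of the 18 pairs. The pair above Mir181b was not among these, as Mir199a-1 had 8 and 10 counts in replicates 1 and 2. Mir199a-1 with Mir199a-2, at 4.50, and Mir103-1 with Mir103-2, at 3.81, also lay above the Mir181a pair with 1 gene not detected. In the Mir30 family, whose members Mir30c-1 and Mir30c-2 also share a mature sequence, that pair lay at 0.95. The Mir181 pairs share the 5p sequence, whereas Mir199a-1 and Mir199b share the 3p sequence, so the reads left out are not alike in all pairs. Some pairs have a gene in common, and the values are a description only.

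**Figure D4:**
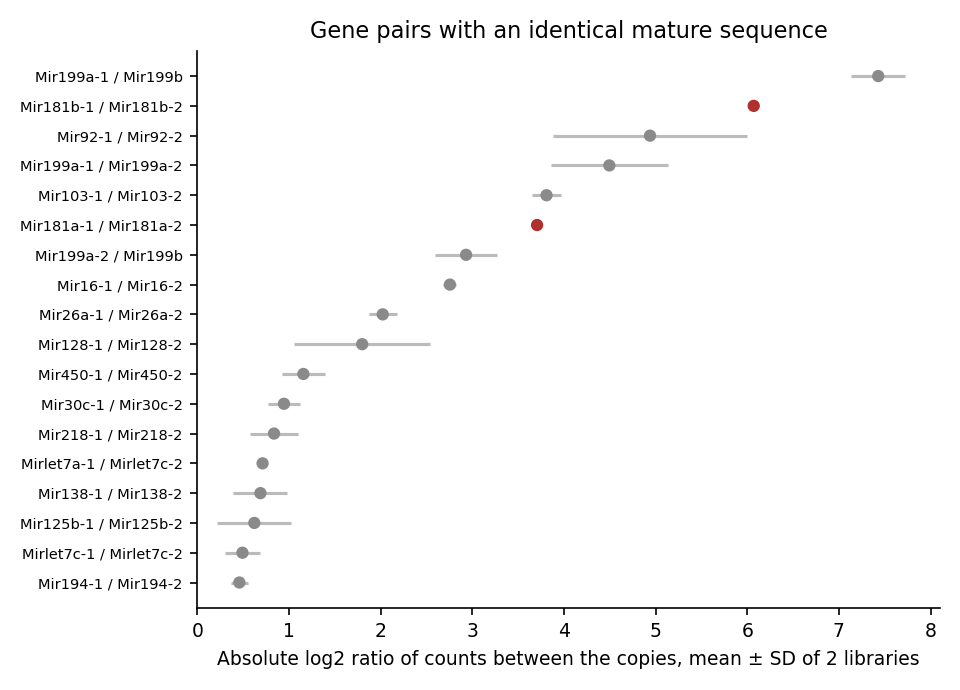
Absolute log2 ratio of counts between genes with an identical mature sequence (x axis, mean ± SD of 2 libraries), for the 18 pairs with at least 100 counts in each library. The Mir181 pairs are the darker, coloured points at 6.07 and 3.71, both above the median of 1.91.

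The spread of the family between the pools was compared with counting noise. With TMM scaling (edgeR's trimmed mean of M values), all 6 genes had positive log2 ratios of replicate 1 to replicate 2, from 0.13 to 0.43 with a median of 0.23, where the median of all tested genes was -0.04. By a two-sided exact binomial test on the counts with Benjamini-Hochberg adjustment over all 413 tested genes, 4 of the 6 were higher in replicate 1 and 0 in replicate 2. The background was high, as 46.5% of all tested genes passed, 21.8% as higher in replicate 1 and 24.7% as higher in replicate 2. This share depends on the genes tested and was 26.2% of the 687 genes with at least 1 count summed and 61.7% of the 303 with at least 50. The test sets the pools against counting error alone, so deeply counted genes pass with small differences.

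Mir181b-2 differed most among the members, at 743 CPM for replicate 1 against 620 CPM for replicate 2. Its log2 ratio was 0.43 (exact binomial 95% interval 0.36 to 0.51, adjusted p = 7.02e-30). Its share of the family's counts was 11.6% for replicate 1 (95% counting interval 11.1% to 11.99%) against 9.86% for replicate 2 (9.55% to 10.2%), a measure that no scaling touches. Mir181d had a log2 ratio of 0.24 (0.20 to 0.28, adjusted p = 2.84e-28 by the same exact binomial test). Both remained called as higher in replicate 1 by total counts, at 0.26 and 0.069.

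For Mir181c and Mir181a-1 the direction depended on the scaling. Under TMM their log2 ratios were 0.13 and 0.16, with adjusted p = 1.75e-10 and 3.48e-06 by the exact binomial test. By total counts they were -0.044 (adjusted p = 0.0443) and -0.016 (adjusted p = 0.714). TMM moves the ratio of every gene up by 0.17 against total counts, which is more than either value. Mir181a-2, at 0.22 (-0.02 to 0.44, adjusted p = 0.124 by the exact binomial test), and Mir181b-1, at 0.40 (-0.25 to 1.02, adjusted p = 0.339), did not pass. Their intervals leave room for differences as large as those of the called members.

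**Figure D5:**
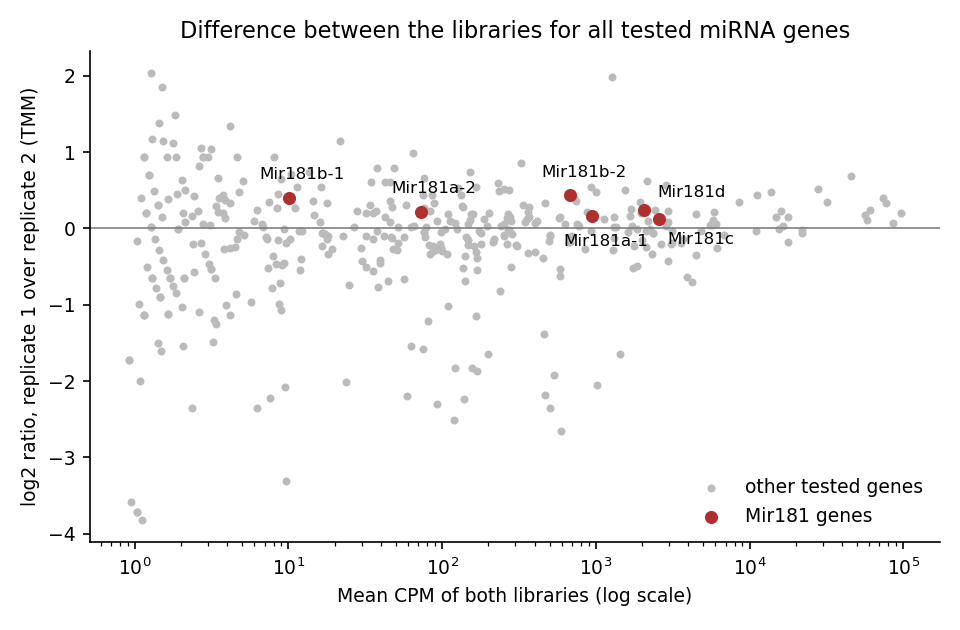
log2 ratio of replicate 1 to replicate 2 after TMM scaling (y axis) against mean CPM (x axis, log scale) for the 413 tested miRNA genes. The 6 Mir181 genes, between 0.13 and 0.43, lie within the main band of genes, while a set of others falls below -1.

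The pools also differed in markers of other tissues. The 6 epithelium markers, Mir200a, Mir200b, Mir200c, Mir141, Mir429 and Mir205, were all higher in replicate 2 by the exact binomial test and summed to 1452 CPM for replicate 1 against 5754 CPM for replicate 2. Of all tested genes, 24.7% passed as higher in replicate 2 and 21.8% as higher in replicate 1. The liver miRNA Mir122 had 87.2 and 309 CPM. Of 6 matched neural markers 1 was detected, Mir137 at 44.2 and 234 CPM, while Mir9-2 and the 3 Mir124a genes had 0 counts. All 6 together summed to 44.5 and 236 CPM, and Mir9-1 was not matched. Of the heart muscle markers 7 were matched, 4 detected and 5 tested, and 3 of these, Mir208a, Mir208b and Mir499, were higher in replicate 1 by the same test, and 0 in replicate 2. Their sum over the 7 genes was 62461 and 45595 CPM, of which Mir208b alone held 53878 and 37837 CPM. The part of these differences in the values of the Mir181 genes was not tested. As a check of the tissue, the cardiac muscle miRNAs Mir208a and Mir208b had 5886 ± 121 and 45857 ± 11342 CPM (SD, n = 2). Mir1a-1 and the Mir133a genes had at most 7 counts in a library, and Mir1a-2 was not matched. Reads that matched several places are in no count. Low or 0 counts here, as for these genes and the Mir124a genes, therefore do not show that a mature miRNA was absent.

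The cells in which the family is best known have other miRNAs in the libraries. Of the 8 miRNAs of lymphoid and other blood cells, 7 were detected and Mir142 was not analysed here. Mir150, a miRNA of mature lymphocytes, was lowest at 16.3 and 19.7 CPM in replicates 1 and 2. Mir342, with 1825 and 2436 CPM, had the highest mean, and the red blood cell miRNA Mir451a had 1975 and 564 CPM. Of the 7, 4 passed as higher in replicate 2 and 1 in replicate 1, where the shares over all tested genes were 24.7% and 21.8%. Both values of Mir181c were above those of Mir342, and those of Mir181d lay between them. In the endothelium list Mir126a had 73496 ± 8090 CPM, Mir221 83.5 ± 20.6 CPM and Mir222 38.0 ± 17.1 CPM, with 1 of the 3 called as higher in replicate 1 and 2 as higher in replicate 2. Each of Mir181c, Mir181d, Mir181a-1 and Mir181b-2 lay above Mir221 and below Mir126a. The means of Mir181a-2 and Mir181b-1, 72.5 and 10.01 CPM, lay below that of Mir221. In replicate 1, however, Mir181a-2 was above Mir221, at 73.6 against 68.9 CPM. From which cells the family's counts came was not tested.

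A cluster of another miRNA group lies on the same chromosome as Mir181c. Mir23a, on the plus strand of chromosome 8, starts 29556 bases past Mir181c, which is on the minus strand. Mir23a had 20561 CPM in replicate 1 and 23533 in replicate 2, and its neighbours Mir27a and Mir24-2 had 253 ± 31.6 and 369 ± 4.76 CPM (SD, n = 2). Mir181c, at 2533 and 2612 CPM, fell between them in level. Of the 5 matched genes of the Mir23, Mir27 and Mir24 clusters, 1 was called as higher in replicate 1 and 2 as higher in replicate 2, with a median log2 ratio of -0.02. In the Mir30 family the count was 5 of 6 and 0, with a median of 0.46. The shares over all tested genes were 21.8% as higher in replicate 1 and 24.7% as higher in replicate 2. Among genes with at least 50 counts summed, 61.7% passed in either direction.

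The genes nearest to the family in level were found by the distance of log2(CPM + 0.5) over both libraries among the 327 detected genes. The summed family was closest to Mir98, Mir208a and Mir93, at 6025 ± 350, 5886 ± 121 and 5799 ± 192 CPM (SD, n = 2), so that the family's counts together were about those of the cardiac muscle gene Mir208a. The nearest to Mir181c were Mir542 (distance 0.14) and Mir483 (0.22), and to Mir181d Mir188 (0.08) and Mir361 (0.11). Mir501 and Mir148a were nearest to Mir181a-1, Mir450b and Mir210 to Mir181b-2, Mir450-1 and Mir29c to Mir181a-2, and Mir190b and Mir3058 to Mir181b-1, at distances of 0.11 to 0.22. With 2 libraries this measures a like level and little else.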

How the data were processed

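Small RNA from pooled E15.5 mouse hearts was sequenced as 2 libraries. The authors' deposited files give each miRNA gene 3 unnormalized whole counts, in columns without names. They were taken as either strand, the gene's strand and the opposite strand from their layout and values, which the files do not state. Per the deposited text files, reads were placed on mm10 and counted on GENCODE M4, and no aligner or counter is named in the sources used here. The gene's strand was used, with totals of 3439539 counts in replicate 1 and 5833156 in replicate 2, so that 1 count is worth 0.291 and 0.171 CPM. Lines that name no gene (multiply matching 33.0% and 30.1%, unmapped 13.1% and 15.1%, no feature 5.11% and 5.07% of reads) stayed out.

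Symbols, positions and hosts came from GENCODE M21, which matched 1894 of 1973 IDs without version. Since M4 positions were not used here, a hairpin's counted interval may differ slightly. Mature sequences were RefSeq's (GRCm38.p6) for all 6 genes, and hairpin sequences for the search were GENCODE M21 transcripts (the bases printed after the 5p sequences are from RefSeq). Shared stretches of 20 bases were searched on both strands in the annotated hairpins and transcripts, not in the whole genome as first planned.

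TMM scaling with edgeR 4.0.16 (R 4.3.3) gave factors of 0.942 and 1.06. Genes with at least 10 counts summed were compared by an exact conditional binomial test with Benjamini-Hochberg adjustment, called under 0.05. Python 3.11.15 with scipy 1.17.1 did the rest. The test was checked on simulated data with counting noise only, so the check does not cover variation between pools. Alternatives were total counts, DESeq2 1.42.0 size factors, other minimums, either strand, all reads as denominator, stretches of 18 and 22 bases and each library alone. The members, lists and tests were chosen with earlier results of these data known. Genes named are the members, the genes nearest in level, the markers and the lists, and pairs of copies, which were chosen after their values were seen.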

Additional observations from a re-analysis of the deposited data

How the results depend on the processing

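The summed family had 6356 CPM, 3128 per 1000000 reads of any kind and 6018 per 1000000 counts on either strand, since only the denominator changed, and 6288 to 6424 CPM with 1 library left out. The 5 log2 ratios between genes stayed on their side of 0 in each library alone. Counting either strand could not change them, since all 6 genes had 0 counts in the column read as the opposite strand. Of the comparisons between the libraries, 2 turned round by total counts, Mir181c to -0.044 and Mir181a-1 to -0.016, because TMM shifts every ratio by 0.17. The other 4 members kept direction and call under total counts, DESeq2 size factors, other minimums and either strand. Of all tested genes, 192 of 413 (46.5%) were called, 203 by total counts and 188 with DESeq2 size factors. With at least 1 count it was 180 of 687 (26.2%), with at least 50 it was 187 of 303 (61.7%), and on either strand 200 of 423. Leaving out a library gives no value for this comparison. With a minimum of 5 or 30 counts, or in each library alone (added after seeing the data), 6 genes were detected. The hairpins sharing stretches were the same pairs at 18 and 22 bases, and at 18 bases 4 stretches of Mir181a-2 were also found in other transcripts. No paired analysis was possible because the series has 1 group. Mir181b-1, with 37 and 54 counts, limits the precision of its ratios most.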
